A study of Mus musculus with 17 samples.

Results

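Solute carrier genes encode the membrane transporters whose symbols begin with Slc or Slco. Members were taken as every listed protein-coding gene whose symbol starts with Slc and a digit, or with Slco, and 50 of the 2615 genes in the deposited count table met this rule. RNA sequencing compared oocytes of control mice, with genotype Ehmt2 flox/flox and no Cre, with oocytes of Ehmt2GKO mice, with genotype Ehmt2 flox/flox; Gdf9-Cre. Both groups carried the floxed allele on the C57BL/6J strain, were 8 weeks old and gave 3 libraries each of polyadenylated RNA, which are control replicates 1, 2 and 6 and Ehmt2GKO replicates 3, 4 and 5. Ehmt2 encodes a histone H3 lysine 9 methyltransferase, and the Gdf9 promoter drives Cre in oocytes from the primordial follicle stage, so that the deletion is aimed at oocytes and not at the follicle cells around them. The labels give the stage of both groups as MII, the study describes the oocytes as superovulated, and the counts hold no record of the stage that each oocyte reached. The paper reports that few Ehmt2GKO oocytes finished the first meiosis and that homologous chromosomes failed to separate in superovulated ones. Stage may therefore differ between the groups, and its part in the differences below cannot be told apart from that of genotype.

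Each solute carrier moves small molecules such as amino acids, sugars, ions, metals or vitamins across a membrane, either down a gradient or coupled to the movement of another ion. Some act at the plasma membrane, where they feed the oocyte and set its volume and pH, and others act at the Golgi, endosomes or the inner membrane of mitochondria, where the Slc25 family exchanges metabolites and nucleotides with the cytosol. A growing oocyte receives many amino acids, sugars and nucleotides through gap junctions from its granulosa cells and imports others itself.

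Every listed gene had been selected by the authors for an adjusted p under 0.05 between these same libraries, so the p-values below describe genes already chosen for a difference. The labels do not say whether libraries of a group came from separate animals, and the p-values measure only the spread between these libraries. Reads over the listed genes ranged from 4060653 to 4258350 per library, which is not the full depth of the libraries. Ehmt2 itself was not among the listed genes, so the deletion could not be checked. Of 19 oocyte marker genes, 6 were listed, with summed normalised counts from 42384 to 51464 in control and from 51433 to 53128 in Ehmt2GKO libraries. The sum hides opposite directions, as 3 were higher and 3 lower by their means. Log2 fold changes ran from -1.05 for Zp3 to 0.51 for Mos. Of 24 markers of cumulus and granulosa cells, the cells around the oocyte, 2 were listed, and of the 9 markers of blood and stroma none was. Ptgs2, the inducible prostaglandin synthase of cumulus cells, rose (log2 fold change 2.98) and Kitl, a granulosa cell ligand for the oocyte, was lower (log2 fold change -0.63). Their summed normalised counts ran from 336 to 384 in control and from 246 to 335 in Ehmt2GKO libraries, and their part in the results below was not tested.

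Solute carriers moved in both directions. The counts of all listed genes entered 1 edgeR quasi-likelihood fit, and a gene was called when its Benjamini-Hochberg adjusted p over all tested genes was under 0.01 and its fold change over 2. Of the 50 members 49 passed the filter on low counts, and 17 of these were called (34.7%), against 35.7% of all listed genes tested. There were 9 members that rose (18.4%; 18.7% of all listed genes) and 8 that fell (16.3%; 16.9% of all listed genes), so that the shares of called members were close to the background in either direction. All 49 had an adjusted p under 0.01, the largest being 0.00888, as did 98.8% of all listed genes tested. Values this small follow largely from the selection of the list and do not show a difference on their own. The 32 members that were not called differed by less than 2-fold. Where the fold itself was tested against 2, 5 members were called, namely Slc16a6, Slc9a9, Slc16a12, Slco1a4 and Slc4a10, which is 10.2% of the members tested against 10.3% of all listed genes tested. The median log2 fold change was -0.39 over the members and -0.32 over all listed genes tested, and the median size without its sign was 0.76 in both sets. Over the listed protein-coding genes tested, the biotype of all members, these medians were 0.33 and 0.72. In 23 members every Ehmt2GKO library was above every control library, in 26 every one was below, and in Slc26a1 the groups overlapped, where 49.9% and 48.3% of all listed genes were so separated.

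**Figure D1:**
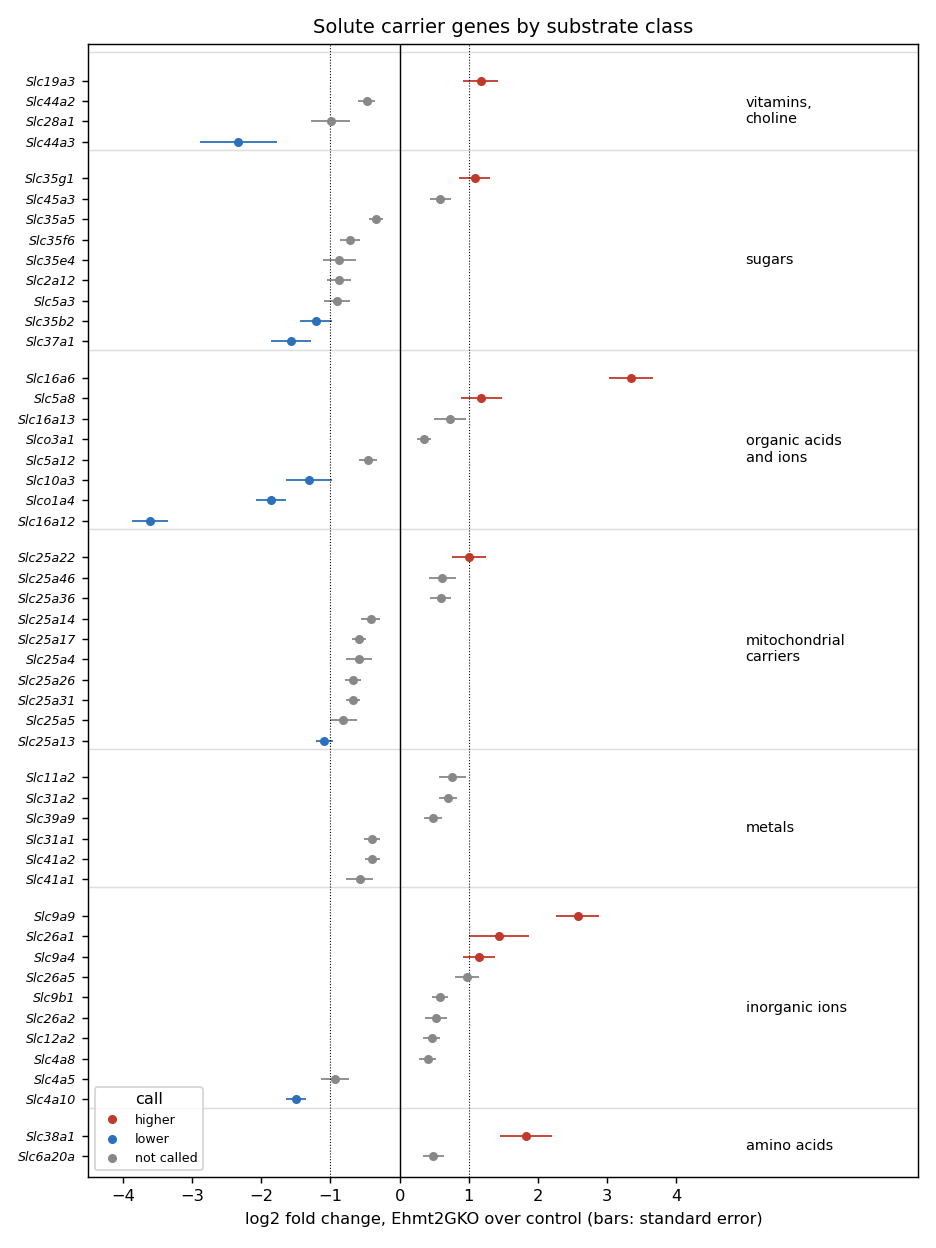
Log2 fold change of Ehmt2GKO over control (x axis, bars are standard errors) for the 49 tested members, by substrate class, with dotted lines at a fold of 2. The values run from -3.61 for Slc16a12 to 3.34 for Slc16a6, and called members stand on both sides of 0.

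The widest changes in both directions lay in 1 family, Slc16, which is named for monocarboxylate transport though not every member carries monocarboxylates. Slc16a6, which encodes a carrier of this family, lies on chromosome 11 of GRCm38 from 109450855 to 109473598. Its normalised read counts, which are counts scaled to a common library size, were 24.7, 18.05 and 37.2 in the control libraries and 172, 251 and 391 in the Ehmt2GKO libraries. It rose 10.1-fold (log2 fold change 3.34, standard error 0.318, edgeR quasi-likelihood adjusted p = 2.25e-07), with the lowest Ehmt2GKO library far above the highest control library. Slc16a12, which encodes a creatine transporter and lies on chromosome 19 from 34668403 to 34747289, went the other way. Its normalised counts were 177, 191 and 233 in control and 18.5, 15.3 and 14.96 in Ehmt2GKO oocytes, a 12.2-fold fall (log2 fold change -3.61, standard error 0.262, edgeR quasi-likelihood adjusted p = 1.14e-08). The third listed member of the family, Slc16a13, had 84.7 ± 15.01 normalised counts in control and 141 ± 27.02 in Ehmt2GKO oocytes (SD, n = 3), a difference under 2-fold. Of the exon bases of Slc16a6, 21.5% are shared with Amz2 on the opposite strand. The strand setting of the counting is not given in the sources used here, so reads in the shared bases cannot be told apart. How many of the counted reads lie in those bases is not known.

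**Figure D2:**
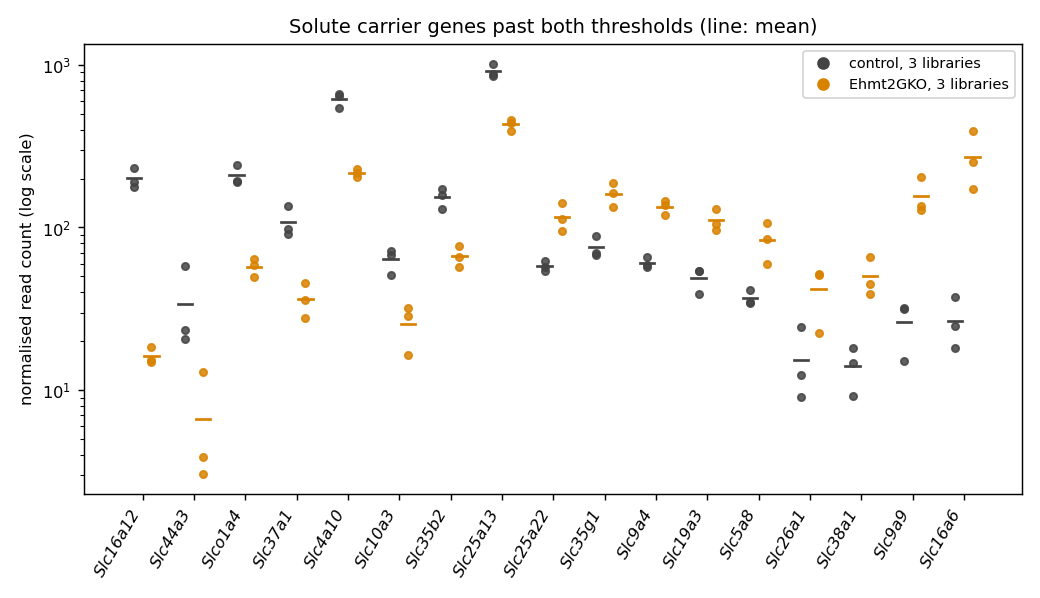
Normalised read count on a log scale (y axis) of the 17 called members in each of the 3 control and 3 Ehmt2GKO libraries, with group means as lines, ordered from the largest fall to the largest rise. The groups are apart for every gene but Slc26a1, where control replicate 6 (24.5) is above Ehmt2GKO replicate 3 (22.4).

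The bases just before the start sites of 3 members called under every alternative tried are given here to show what lies upstream of a transporter gene that rose and of a pair that fell. They are the 250 bases ahead of the RefSeq transcription start on build GRCm38.p6, 5′ to 3′ on the strand of the gene, with each CG in capitals. The window of Slc16a12 is chr19:34747329-34747578 on the minus strand, that of Slco1a4 is chr6:141856221-141856470 on the minus strand, and that of Slc9a9 is chr9:94669642-94669891 on the plus strand.
Slc16a12: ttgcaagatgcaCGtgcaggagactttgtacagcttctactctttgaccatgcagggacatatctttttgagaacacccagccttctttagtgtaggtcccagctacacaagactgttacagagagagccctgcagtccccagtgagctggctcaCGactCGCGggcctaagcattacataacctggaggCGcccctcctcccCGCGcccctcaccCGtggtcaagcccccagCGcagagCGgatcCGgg
Slco1a4: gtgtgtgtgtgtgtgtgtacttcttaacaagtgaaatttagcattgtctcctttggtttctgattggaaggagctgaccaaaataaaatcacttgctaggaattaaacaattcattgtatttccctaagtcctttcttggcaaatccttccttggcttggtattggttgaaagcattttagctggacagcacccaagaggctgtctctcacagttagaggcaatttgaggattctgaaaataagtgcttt
Slc9a9: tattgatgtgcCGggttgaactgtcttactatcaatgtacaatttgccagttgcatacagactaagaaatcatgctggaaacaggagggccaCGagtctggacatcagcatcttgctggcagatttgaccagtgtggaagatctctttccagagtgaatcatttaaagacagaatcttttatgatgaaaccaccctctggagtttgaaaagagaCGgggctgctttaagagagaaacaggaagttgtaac
The Slc16a12 window holds 11 CG, the Slc9a9 window 3 and the Slco1a4 window 0, against a median of 6 over all 32851 windows of this length. Of all windows, 35.6% hold 11 CG or more and 7.87% hold 0. On either strand, CCAAT was found in the Slco1a4 window and in 33.8% of all windows, and neither GGGCGG (32.7% of all windows) nor TATAAA (12.4%) was found in any of the 3. These are descriptions of the letters only. Slc16a6 and Slc4a10 were also called under every alternative, but no window of theirs is given here. A window was held for 38 of the 50 members, and CG content was not compared over the members.

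Among carriers of organic acids, bile acids and drugs 5 of 8 members were called (62.5%, against 35.7% of all listed genes), 2 higher and 3 lower. Slco1a4, a transporter of organic anions and bile salts, was among those that fell. It had 243, 193 and 191 normalised counts in control and 58.4, 64.4 and 49.9 in Ehmt2GKO oocytes (log2 fold change -1.86, standard error 0.215). Its relative Slco3a1, the most abundant member of the class per length, had 4512 ± 165 and 5747 ± 667 normalised counts (SD, n = 3), a 1.27-fold difference in the other direction. Slc5a8 and Slc5a12 both encode sodium-coupled monocarboxylate transporters. Slc5a8 rose from 36.8 ± 3.77 to 83.4 ± 23.5 normalised counts (log2 fold change 1.18, standard error 0.294), and the rise was 0.96 without Ehmt2GKO replicate 3, under the fold limit. Slc5a12 had 836 ± 105 and 609 ± 43.7 normalised counts. Slc10a3, an orphan member of the bile acid transporter family, fell from 63.7 ± 10.8 to 25.7 ± 8.09 normalised counts (log2 fold change -1.31, standard error 0.330). It shares 12.8% of its exon bases with Ubl4a on the same strand. The median log2 fold change of the class was -0.05.

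Among carriers of inorganic ions, which set cell volume and pH, 8 of 10 members had a higher mean in Ehmt2GKO oocytes, against 50.5% of all listed genes, and 3 rose and 1 fell by the test. All 3 listed sodium-proton exchanger genes, which export protons from the cytosol or acidic compartments, were higher. Slc9a9, the endosomal exchanger, rose from 31.8, 15.04 and 31.3 normalised counts in control to 135, 128 and 204 in Ehmt2GKO oocytes (log2 fold change 2.57, standard error 0.309, edgeR quasi-likelihood adjusted p = 2.67e-06). Slc9a4, an exchanger of the plasma membrane, rose from 60.5 ± 4.99 to 134 ± 13.6 normalised counts (log2 fold change 1.14, standard error 0.228). It shares 16.7% of its exon bases with Gm37435 on the opposite strand. Slc9b1, which had the most reads per length in the class, had 1823 ± 304 and 2721 ± 75.9 normalised counts, a 1.49-fold difference.

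All 3 listed anion exchangers of the Slc26 family were higher by their means, though 1 of the 3 was called, against 35.7% of all listed genes tested. That was Slc26a1, a sulphate and oxalate transporter, with 12.3, 9.02 and 24.5 normalised counts in control and 22.4, 51.1 and 51.9 in Ehmt2GKO oocytes (log2 fold change 1.44, standard error 0.436). Its groups overlapped, and the call was lost when control replicate 1 or 2 or Ehmt2GKO replicate 4 or 5 was left out, with log2 fold changes from 1.16 to 1.30. Slc26a5, another member of the family, stood just inside the fold limit at a 1.96-fold difference. Bicarbonate transporters of the Slc4 family did not share a direction. Slc4a10, which carries sodium and bicarbonate into cells, fell from 644, 658 and 540.5 normalised counts in control to 216, 229.9 and 204 in Ehmt2GKO oocytes (log2 fold change -1.50, standard error 0.142, edgeR quasi-likelihood adjusted p = 2.07e-07). The libraries of each group lay close together, and the lowest control count was over the highest Ehmt2GKO count by more than either spread. Slc4a5 was 1.91-fold lower and Slc4a8 1.33-fold higher, neither being called. Slc12a2, the sodium-potassium-chloride cotransporter that raises cell volume, had 652 ± 63.7 and 900.4 ± 74.6 normalised counts.

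The listed mitochondrial carriers had lower summed reads in Ehmt2GKO oocytes, as did the listed vitamin class, whose sum differed by -24.8%. The 10 members all hold the carrier domain of the Slc25 family by their annotation, though Slc25a17 acts in the peroxisome and Slc25a46 in the outer mitochondrial membrane. The summed normalised count of the class was 16244, 15119 and 16022 in control and 10275, 10747 and 10068 in Ehmt2GKO libraries, a difference of -34.4%. The sums did not overlap, but each of the 10 genes had been selected for a difference and was itself separated, so this adds no support. Slc25 genes that were not listed are not in the sum. Without Slc25a31, the most abundant of them, the difference was -31.8%. By their means 7 of 10 were lower, against 49.5% of all listed genes. The median log2 fold change was -0.59, against -0.32 over all listed genes tested and 0.33 over the protein-coding ones. By the 2-fold rule 1 fell and 1 rose, which is 20.0% called against 35.7% of all listed genes.

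Adenine nucleotide translocases, which exchange ATP made in mitochondria for cytosolic ADP, were listed with 3 members, all lower. Slc25a31, a translocase known from germ cells, had 7013, 6878 and 7510 normalised counts in control and 4128, 4887 and 4350 in Ehmt2GKO oocytes, a 1.60-fold difference (log2 fold change -0.68, standard error 0.102). Per kilobase of exon, scaled to a common number of listed reads, its level was 801 in control and 500.3 in Ehmt2GKO oocytes, against 64.5 and 36.7 for Slc25a5 and 23.05 and 15.3 for Slc25a4. Slc25a31 was thus the leading listed translocase in both groups. Slc25a5 differed by -0.81 (standard error 0.197) and Slc25a4 by -0.59 (standard error 0.188) on the log2 scale. Transcripts of Gm5529 and Gm5560 are 96.8% and 98.3% identical to that of Slc25a5 over 72% of its length, and its reads may have been divided among these loci. Without control replicate 6, Slc25a5 passed the 2-fold limit at a log2 fold change of -1.004.

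The called mitochondrial carriers handle glutamate. Slc25a13, which exchanges mitochondrial aspartate for cytosolic glutamate, fell from 1005, 857 and 881 normalised counts to 441, 457 and 391 (log2 fold change -1.09, standard error 0.126). Slc25a22, which imports glutamate with a proton, rose from 62.7, 54.1 and 56.8 to 95.4, 112 and 142 normalised counts (log2 fold change 1.01, standard error 0.246). Both sat near the 2-fold limit. Slc25a22 stayed under it without control replicate 2 (0.95), without control replicate 6 (0.99) and without Ehmt2GKO replicate 5 (0.85), and also with limma voom and with library size alone, and Slc25a13 stayed under it with the size factors of DESeq2 at -0.996. The remaining members of the class differed by less than 2-fold. Slc25a17 had 4301 ± 392.4 and 2859 ± 71.1 normalised counts, and Slc25a26, which brings the methyl donor S-adenosylmethionine into mitochondria, had 1872 ± 218 and 1170.0 ± 90.8. Slc25a36 and Slc25a46 were 1.51-fold and 1.53-fold higher.

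**Figure D3:**
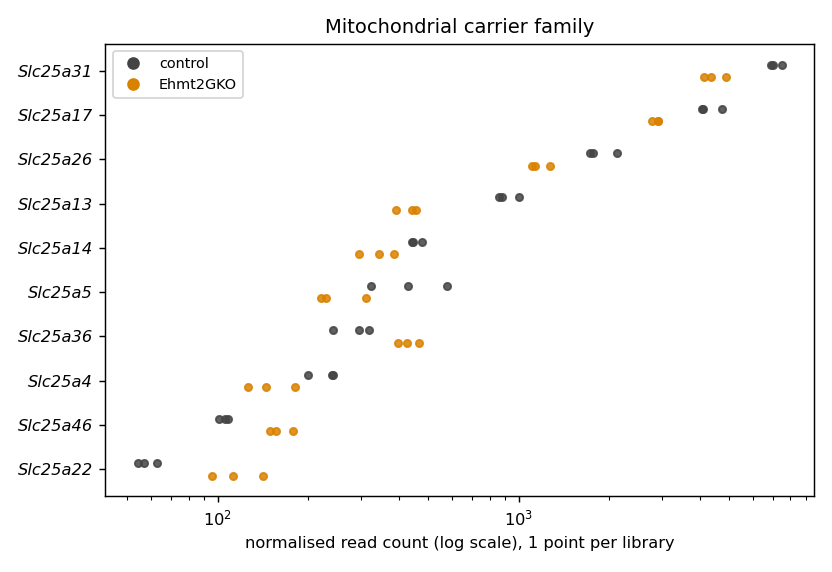
Normalised read count on a log scale (x axis) of the 10 listed Slc25 members, with 1 point per library for 3 control and 3 Ehmt2GKO libraries. In 7 genes the Ehmt2GKO points lie to the left of the control points, and in Slc25a36, Slc25a46 and Slc25a22 to the right.

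In the class of sugar, polyol and nucleotide sugar transporters, Slc45a3 went against most of the others. It encodes a putative sugar transporter and was the most abundant member, with 15842, 22780 and 18531 normalised counts in control and 24381, 25148 and 36167 in Ehmt2GKO oocytes, a 1.499-fold difference (log2 fold change 0.58, standard error 0.151). Every Ehmt2GKO library was above every control library, though Ehmt2GKO replicate 3 was close to control replicate 2. It took between 29.9% and 38.3% of all member reads in control and between 42.4% and 50.9% in Ehmt2GKO libraries. The summed normalised count of the class was 35.9% higher in Ehmt2GKO oocytes with it, and it differed by -27.7% without it, from 4222 ± 262 to 3054 ± 222. Gm29103 on the same strand shares 13.5% of the exon bases of Slc45a3.

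By their means 7 of the 9 sugar class members were lower, against 49.5% of all listed genes, with a median log2 fold change of -0.87. Slc37a1, an exchanger of glucose 6-phosphate and phosphate at the endoplasmic reticulum, fell from 91.4, 98.3 and 136 to 45.8, 27.6 and 35.9 normalised counts (log2 fold change -1.57, standard error 0.284). Slc35b2, which brings the sulphate donor PAPS into the Golgi, fell from 129, 172 and 159 to 76.9, 65.4 and 56.8 (log2 fold change -1.21, standard error 0.227). The groups were apart for both genes. Of 5 Slc35 members 4 were lower by their means, and the exception was Slc35g1, an orphan member that rose from 75.7 ± 11.6 to 161 ± 26.8 normalised counts (log2 fold change 1.09, standard error 0.223). Without Ehmt2GKO replicate 4 its log2 fold change was 0.96. The facilitative sugar transporter gene Slc2a12 was 1.84-fold lower and the sodium-coupled myo-inositol transporter gene Slc5a3 1.87-fold lower, both uncalled.

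**Figure D4:**
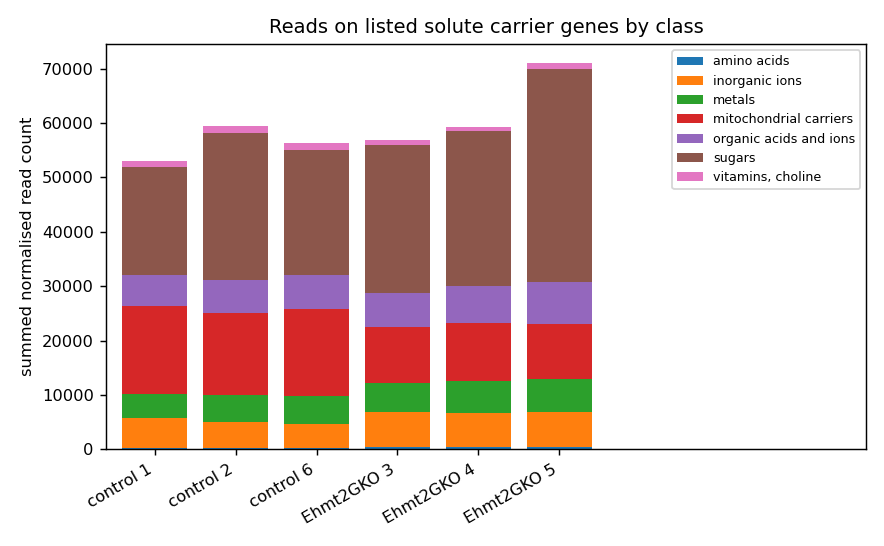
Summed normalised read count of the 50 members in each library (y axis), stacked by substrate class. The sugar class, which holds Slc45a3, makes the largest block in every library, and the mitochondrial block is lower in the 3 Ehmt2GKO libraries than in the 3 control libraries.

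Metal transporters differed by less than 2-fold throughout. By edgeR's quasi-likelihood test 0 of 6 were called, against 35.7% of all listed genes tested. DESeq2 and limma voom also called 0, while 3 were higher and 3 lower by their means. All 6 had an unadjusted p under 0.05, which the selection of the list had fixed. The copper transporter genes went opposite ways. Slc31a2, an intracellular copper transporter, had 1609, 1983 and 2188 normalised counts in control and 2674, 3316 and 3403 in Ehmt2GKO oocytes (log2 fold change 0.70, standard error 0.125). Slc31a1, which imports copper at the plasma membrane, had 924 ± 36.4 and 703 ± 44.5 (log2 fold change -0.39, standard error 0.114). The groups were apart for both of these genes. Slc11a2, the proton-coupled importer of iron and other divalent metals, had 139.9 ± 29.8 and 237 ± 31.2 normalised counts, the largest difference upward in the class. Slc41a1 and Slc41a2, magnesium transporter genes, were 1.495-fold and 1.32-fold lower.

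Amino acid transporters were represented by 3 listed genes, all higher by their means. Slc38a1, which takes up glutamine and other neutral amino acids with sodium, rose from 9.25, 18.05 and 14.7 to 66.2, 44.96 and 38.9 normalised counts (log2 fold change 1.83, standard error 0.377). The highest control library stayed under the lowest Ehmt2GKO library, as it did in 49.9% of all listed genes. Slc38a1 was not fitted when the filter asked for a minimum count in every library. Its place among the tested members thus rests on its higher counts in Ehmt2GKO oocytes. Slc6a20a, a proline transporter gene, had 229.8 ± 18.1 and 322 ± 18.4 normalised counts, with 13.8% of its exon bases shared with Gm17120 on the opposite strand. Slc6a11, a transporter of the neurotransmitter GABA, had raw counts of 0, 0 and 0 in control and 6, 7 and 7 in Ehmt2GKO oocytes and did not pass the filter on low counts. Against a floor of 3 counts in each control library it was at least 2.22-fold higher.

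Of the 4 members in the class of vitamin, nucleoside and choline transporters, 1 rose and 1 fell. Slc19a3, a thiamine transporter gene, rose from 49.01 ± 8.64 to 111 ± 17.9 normalised counts (log2 fold change 1.17, standard error 0.257). Slc44a3, of the choline transporter-like family, fell from 20.5, 58.2 and 23.5 to 3.90, 3.07 and 12.97 (log2 fold change -2.34, standard error 0.557). These were among the lowest counts of the members, and control replicate 2 stood above the other control libraries. The log2 fold change ranged from -3.24 to -1.72 over the alternatives that fitted this gene. Slc44a3 was not fitted when the filter asked for a minimum count in every library. Its place among the tested members thus rests on its higher counts in control oocytes. Slc44a2 of the same family had 1048 ± 100.1 and 754 ± 91.3 normalised counts. Slc28a1, a sodium-coupled nucleoside transporter gene, stood just inside the fold limit at -0.996 on the log2 scale (1.995-fold lower) and was not called.

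Called members were those with fewer reads. Of the 10 members with more than 1000 mean normalised counts edgeR called 0, as did DESeq2 and limma voom, and all 10 had an unadjusted p under 0.05, which the selection of the list had fixed. Of all listed genes above that level 5.91% were called. Up to that level 17 of 39 tested members were called (43.6%), against 47.7% of all listed genes. The median standard error of the log2 fold change was 0.112 in the first set of members and 0.197 in the second, and an equal p therefore stood for a larger fold at low counts. On the same scale per kilobase of exon, averaged over both groups, the highest levels among members were those of Slc45a3 (1597), Slc25a31 (651), Slc25a17 (300.5), Slc31a2 (297), Slc9b1 (147) and Slco3a1 (145). Slc25a17 and Slc31a2 had nearly equal mean levels but opposite directions, so their order differed between the groups. Slc9b1 and Slco3a1 also changed places, with levels of 118 and 127 in control and 176 and 162 in Ehmt2GKO oocytes. The difference in level between these genes was not tested.

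**Figure D5:**
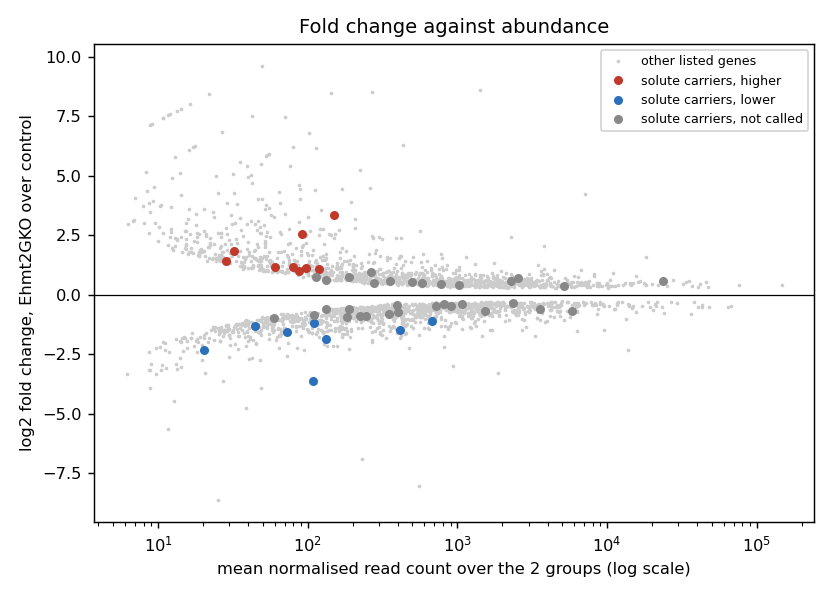
Log2 fold change (y axis) against mean normalised read count on a log scale (x axis) for all tested listed genes, with the 49 tested members in colour. The 17 called members all lie below 1000 mean normalised counts, and members above that level lie between -0.68 and 0.70.

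The share of listed reads on all members was from 1.27% to 1.43% in control and from 1.39% to 1.67% in Ehmt2GKO libraries, with overlap between the groups. Leaving out Slc45a3, it was from 0.880% to 0.908% in control and from 0.795% to 0.820% in Ehmt2GKO libraries, and the groups were apart with the order turned. GENCODE vM21 holds 385 protein-coding genes that meet the naming rule, of which 12.99% were listed, against 10.3% of its 22028 protein-coding genes. Of 17 transporter genes known from oocyte work, 3 were listed, Slc12a2, Slc25a4 and Slc25a5. None of these was called, against 35.7% of all listed genes tested. The other 14, which were not listed, were not analysed here. Among genes of other transporter families and of transporter partners, 27 were listed and 6 were called, 5 higher and 1 lower (22.2%, against 35.7% of all listed genes).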

How the data were processed

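RNA sequencing of 3 control and 3 Ehmt2GKO oocyte libraries was analysed; the RRBS samples were not analysed here. Per the labels, RNA was amplified with a SMART-Seq v4 low input kit. The submitters' processing notes name FastQC, HISAT2 and DESeq2 and the build GRCm38 (mm10); the counting program, its strand setting and the annotation are not given in the sources used here. The authors deposited read counts per gene without normalization. The deposited p-value columns were read only to find that all 2615 rows have an adjusted p under 0.05; the deposited fold changes, which are also the authors' own comparison, were not used.

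The whole table was fitted in R 4.3.3 with edgeR 4.0.16 (filterByExpr at a minimum count of 10, then TMM, quasi-likelihood F-test, Benjamini-Hochberg adjustment over 2516 tested genes). Calls required an absolute log2 fold change above 1, as the study used, and an adjusted p under 0.01. Normalised counts use the same TMM factors. Such factors assume that most genes do not change, while every listed gene had been selected for a difference. Class sums and folds near 2 therefore depend on the choice of factors. With the size factors of DESeq2, the summed count differed by -30.0% for mitochondrial carriers and by 45.2% for the sugar class. Read shares are shares of the listed reads only. Levels per kilobase use merged exons of GENCODE vM21. Alternatives were DESeq2 1.42.0, limma voom (limma 3.58.1), other size factors, other filters, a test against a fold of 2 and leaving out each library. Figures used matplotlib 3.10.9. On simulated data in which 200 genes had a log2 fold change of 2, edgeR recovered 97% of them with 0 unchanged genes called among 2501 tested. Recovery of changes just over the fold limit, where several called members lie, was not tested. Recovery in a list where every gene had been selected for a difference was not tested either.

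Substrate classes follow the family number, with single genes as exceptions (Slc5a8 and Slc5a12, placed with organic acids). Near-identical copies were sought with blastn 2.17.0 at 95% identity over 50% of the transcript, and overlaps of at least 10% of exon bases are named. Libraries of a group differed by more than sampling noise (chi-square per gene from 10.7 to 23.3), so read counts alone do not set the precision. Members named were those called, the most abundant and the largest rise and fall of each class, transporters known from oocytes, members with at most 3 counts throughout a group, and members with copies or overlaps; others named to complete a class or family were chosen after their values were seen. The members, lists and tests were chosen with earlier results of these data known. Some genes of the other transporter and partner lists are not reported here by name.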

Additional observations from a re-analysis of the deposited data

How the results depend on the processing

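No paired analysis was possible because control and Ehmt2GKO libraries carry different replicate numbers. Of the 29 named members tested, 16 kept the same call under all alternatives and 13 did not, with 0 reversals of direction, and the 49 tested members changed sign in 0 of 634 fits. When the fold was tested against 2, calls came to 5 of the members (2 higher, 3 lower), 260 of all listed genes (185 higher, 75 lower), 2 of the ion class, 3 of the organic acid class, and 0 each of the amino acid, mitochondrial, sugar and vitamin classes and of other transporters and partners (0 higher, 0 lower); this test asks for a fold reliably above 2 and is stricter by construction. Requiring 10 counts in every library left 0 called in the amino acid class, 1 in the vitamin class and 297 listed genes higher. With no filter the amino acid class had 2 and the vitamin class 3. DESeq2, limma voom, RLE factors and library size alone each left 1 mitochondrial carrier called in place of 2, and library size alone gave 3 in the vitamin class. The difference in read share was 0.134 percentage points with all members and -0.0876 without Slc45a3. Leaving out 1 library in turn gave 16 to 19 called members (7 to 9 higher, 9 to 10 lower), 791 to 916 listed genes (425 to 485 higher, 366 to 460 lower), 3 to 7 other transporters and partners (2 to 6 higher, 0 to 1 lower), and by class 1 to 1 amino acid, 3 to 5 ion, 0 to 0 metal, 1 to 2 mitochondrial, 4 to 5 organic acid, 3 to 4 sugar and 2 to 3 vitamin members. The sums without Slc25a31 or Slc45a3 were chosen after seeing the data. DESeq2 and RLE factors moved the median log2 fold change of all genes by 0.094. Full library depth is unknown here, and Slc6a11, with 0 counts in every control library, was called with no filter and could not be tested otherwise.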

Other observations

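Solute carrier members that lie near each other did not always move together. Slc41a1 and Slc45a3 lie 114.1 kb apart on chromosome 1 with no listed gene between them, and their log2 fold changes were -0.58 and 0.58. Slc31a2 and Slc31a1 lie 62.3 kb apart on chromosome 4, also with no listed gene between, and had log2 fold changes of 0.70 and -0.39. Slc11a2 and Slc4a8 on chromosome 15 lie 336.7 kb apart with 2 listed genes between, and both were higher (0.76 and 0.41).

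Outside the solute carriers, all 4 listed P-type ATPase genes were higher by their means. Atp10a, a phospholipid flippase, rose from 142 ± 41.1 to 313 ± 6.61 normalised counts (log2 fold change 1.14, standard error 0.198). Of 7 listed subunits and partners of the V-type proton ATPase, which acidifies endosomes and lysosomes, 5 were lower, and Atp6v1f fell from 57.7 ± 7.75 to 25.8 ± 9.02 normalised counts. Bsg, the partner that brings some Slc16 carriers to the membrane, had 596 ± 62.9 and 370.2 ± 55.2 normalised counts and was not called.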
